A study of Glycine max with 8 samples.

Results

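Peaks at tRNA genes were examined in ChIP-seq data of nodulated soybean (Glycine max) roots, each carrying 1 of 4 NAC transcription factors (TFs) with a FLAG tag. The groups were FLAG-SNAP1, FLAG-SNAP2, FLAG-SNAP3 and FLAG-SNAP4, each with 2 biological replicates, which makes 8 libraries. In each group the coding sequence from Williams 82 was fused to the FLAG tag under the soybean pM4 promoter and brought into hairy roots with Agrobacterium K599, and chromatin was precipitated with an anti-FLAG antibody and cut with the transposase Tn5 on the beads. GEO's genotype field calls each sample a mutant of its SNAP gene, whereas the methods of the study describe tagged TFs. Hairy roots are made by a bacterium, the TFs were expressed from a transgene, and no library of roots without a tag was analysed here, so peaks of the tagged TF and peaks that any such precipitation would give cannot be told apart. The samples were bulk tissue, in which the number of cells with a TF and the amount of TF in each cannot be told apart, and peak lists hold no marker by which to check the labelled tissue.

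A peak was counted at a tRNA gene when its summit, the base of highest signal, lay within 200 bp of the gene as annotated by RefSeq in Glycine_max_v4.0. In all, 4992 of the 57709 peaks of the 8 libraries were at tRNA genes. The 20 chromosomes hold 709 tRNA genes, 71 to 94 bp long, among 58643 annotated genes. They carry 45 anticodons for 20 amino acids, and 678 of them had a summit in at least 1 library. A tRNA gene was called clustered when another tRNA gene lay within 5 kb (77 genes) and single otherwise (632 genes).

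Transfer RNAs carry amino acids to the ribosome and read the codons of the messenger RNA with their anticodon. Their genes are transcribed by RNA polymerase III from promoter elements inside the gene, the A box and the B box, which are bound by the factor TFIIIC. Most protein-coding genes, among which NAC factors are known to find their targets, are transcribed by RNA polymerase II. Several copies of a gene for each anticodon are dispersed through a plant genome, and their sequences are often identical or nearly so. Reads that map to several places are therefore hard to assign, and the authors kept uniquely mapped reads only.

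The libraries differed in the number of peaks, from 3628 in FLAG-SNAP3 replicate 2 to 9332 in FLAG-SNAP2 replicate 2. The peak lists give no read counts, and of the depth the study states only a minimum common to its samples, so how the libraries differed in depth is not known. Every peak had a q-value under 0.05, and weaker signal was not analysed here. Between 17 and 35 peaks per library lay outside the 20 chromosomes.

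Nearly all tRNA genes had a peak of SNAP1 and SNAP2, and most had a peak of SNAP3 and SNAP4. In the FLAG-SNAP1 libraries 661 and 666 of the 709 tRNA genes had a summit (93.2% and 93.9%), against 7.27% and 7.77% of all genes. In the FLAG-SNAP2 libraries 662 and 668 tRNA genes had one (93.4% and 94.2%), against 7.18% and 7.95% of all genes. The FLAG-SNAP3 libraries had 623 and 561 (87.9% and 79.1%), against 7.09% and 4.18% of all genes, and the FLAG-SNAP4 libraries had 557 and 632 (78.6% and 89.1%), against 5.52% and 6.28%. Tagged SNAP1 and SNAP2 thus had more occupied tRNA genes in every library than SNAP3 and SNAP4 had in any, but the spread between the replicates of SNAP3 and of SNAP4 was wide. The share averaged 93.6% ± 0.499 in FLAG-SNAP1, 93.8% ± 0.598 in FLAG-SNAP2, 83.5% ± 6.18 in FLAG-SNAP3 and 83.9% ± 7.48 in FLAG-SNAP4 (SD, n = 2 each), and the difference between the 4 TFs did not pass an exact permutation test over all ways to divide the 8 libraries into 4 pairs (p = 0.190, where the smallest possible p is 0.00952). With 2 libraries against 2, no pair of TFs can be told apart by an exact permutation test (smallest two-sided p = 0.333).

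Other genes for small RNAs had a summit less often. Among 133 genes for snRNAs, the RNA parts of the spliceosome, between 11 and 34 had one within the same distance (8.27% to 25.6%), in every library a larger share than that of all genes given above. The shares were smaller than those of all genes for snoRNAs, which guide the modification of other RNAs (between 10 and 23 of 1674 genes), and for rRNAs (between 0 and 3 of 448 genes). The tRNA genes exceeded these 2255 genes by 86.8 percentage points on average (77.2 to 91.8, higher in 8 of 8 libraries), a difference larger than the spread between libraries by an exact two-sided sign-flip test over the 8 libraries (p = 0.0078, the smallest it can give). The test compares libraries over the same genes and says nothing of the spread between genes. Against snRNA genes alone the mean difference was 70.8 points. How many reads of the snRNA, snoRNA and rRNA genes could be placed uniquely was not tested.

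The same tRNA genes had a summit across the TFs in most cases. A summit was found in all 8 libraries at 492 tRNA genes (69.4%), against 1.74% of all genes, and in at least 1 library at 678, against 17.3% of all genes. A further 86 genes had a summit in 7 libraries and 52 in 6, and 31 had none in any. In both replicates of a TF, 656 tRNA genes had a summit in FLAG-SNAP1 (5.25% of all genes did), 657 in FLAG-SNAP2 (4.86%), 552 in FLAG-SNAP3 (3.37%) and 540 in FLAG-SNAP4 (3.67%). Beside the 492 genes with all 4 TFs, 57 genes had both replicates of SNAP1, SNAP2 and SNAP3 only, 43 of SNAP1, SNAP2 and SNAP4 only, and 51 of SNAP1 and SNAP2 only. Patterns with SNAP3 or SNAP4 but without SNAP1 and SNAP2 together were rare, at 1 or 2 genes each. Of the 86 genes with 7 libraries, 48 lacked a summit only in FLAG-SNAP4 replicate 1 and 27 only in FLAG-SNAP3 replicate 2, the library with the fewest peaks.

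Summits lay on or close to the genes. The summit was inside the tRNA gene for 54.3% and 58.4% of the occupied genes in FLAG-SNAP1, 60.4% and 58.1% in FLAG-SNAP2, 62.1% and 56.1% in FLAG-SNAP3, and 45.6% and 54.3% in FLAG-SNAP4. The median distance from the summit to the centre of the gene was 26 to 41.5 bp, and 93.5% to 99.3% of the occupied genes had a summit within 100 bp. The share of summits inside the gene did not differ across the TFs beyond the spread between replicates (exact permutation test, p = 0.210, a test chosen after the values were seen). The strand of the genes was not analysed here, so distances have no direction.

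Peaks at tRNA genes were stronger and wider than the others in every library. Median fold enrichment, which is the authors' ratio of the signal at the summit to the local background, was 7.97 and 8.17 at tRNA genes in FLAG-SNAP1, against 4.43 and 4.40 at the other peaks. It was 7.07 and 7.04 in FLAG-SNAP2, against 4.21 and 4.06, 7.79 and 7.39 in FLAG-SNAP3, against 4.70 and 4.94, and 5.13 and 6.19 in FLAG-SNAP4, against 3.97 and 4.13. Both FLAG-SNAP4 libraries were thus below all others at tRNA genes. The median peak width was 328 to 481 bp at tRNA genes and 262 to 358 bp elsewhere. Since fold enrichment may be scaled differently in each library, peaks were also placed by their percentile among the peaks of their own library, where 100 is the strongest. The median percentile of peaks at tRNA genes was 93.8 and 94.4 in FLAG-SNAP1, 93.4 and 94.6 in FLAG-SNAP2, 91.2 and 86.3 in FLAG-SNAP3, and 84.2 and 90.1 in FLAG-SNAP4, and the TFs did not differ by the exact permutation test (p = 0.171).

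The top of the lists differed more. Among the 100 strongest peaks of a library, 29 and 31 were at tRNA genes in FLAG-SNAP1, 43 and 40 in FLAG-SNAP2, 37 and 43 in FLAG-SNAP3, and 3 and 5 in FLAG-SNAP4. Still, the strongest peak of each library was not at a tRNA gene, and the best rank of a tRNA peak was 5, in FLAG-SNAP3 replicate 1. Peaks at tRNA genes made up 7.54% ± 0.342 of all peaks in FLAG-SNAP1, 7.69% ± 0.830 in FLAG-SNAP2, 12.4% ± 4.22 in FLAG-SNAP3 and 9.27% ± 0.174 in FLAG-SNAP4 (SD, n = 2 each; exact permutation test, p = 0.0571). This p was 0.0286 with summits within 100 bp, 0.0381 and 0.0190 at q-values of 0.01 and 0.0001, and 0.0286 without FLAG-SNAP3 replicate 1. It was 0.0762 with the same number of peaks in each library, 0.0667 within 500 bp and 0.152 to 0.248 without each of the other 7 libraries (exact permutation tests). FLAG-SNAP3 replicate 2, with 557 tRNA peaks among only 3628, had 15.4%.

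The 5 tRNA genes with the highest mean percentile over the 8 libraries are described first. TRNAR-CCU, an arginine tRNA gene on chromosome 12, led with a mean percentile of 99.5. Its fold enrichment was 15.9 and 15.4 in FLAG-SNAP1, 15.5 and 14.7 in FLAG-SNAP2, 15.9 and 15.6 in FLAG-SNAP3, and 11.1 and 12.3 in FLAG-SNAP4. In FLAG-SNAP1 replicate 1 the peak spanned chr12:12848287-12848783 (Wm82 a4.v1), with the summit 29 bp from the gene. The SNAP4 libraries were the lowest here, and the other 6 lay within a narrow range. TRNAR-ACG (arginine) and TRNAL-CAA (leucine), neighbours on chromosome 5, shared 1 peak, at chr5:32340436-32341177 in FLAG-SNAP1 replicate 1, and so the same values. These were 13.8 and 16.2 in FLAG-SNAP1, 14.0 and 14.2 in FLAG-SNAP2, 17.6 and 14.0 in FLAG-SNAP3, and 10.4 and 10.8 in FLAG-SNAP4. Again the SNAP4 libraries stood below the other 6. TRNAP-UGG, a proline tRNA gene of 75 bp on chromosome 17, where the usual length of the anticodon is 72 bp, that overlaps the protein-coding gene LOC100797548, had 16.6 and 12.2 in FLAG-SNAP1, 9.70 and 11.4 in FLAG-SNAP2, 15.6 and 14.3 in FLAG-SNAP3, and 15.9 and 12.7 in FLAG-SNAP4 (chr17:37119038-37119519 in FLAG-SNAP1 replicate 1). Here the SNAP2 libraries were the lowest and SNAP4 lay among the rest. TRNAV-CAC, a valine tRNA gene on chromosome 2, had 16.4 and 14.6 in FLAG-SNAP1, 14.0 and 13.1 in FLAG-SNAP2, 15.0 and 15.4 in FLAG-SNAP3, and 9.98 and 10.4 in FLAG-SNAP4 (chr2:7775804-7776293 in FLAG-SNAP1 replicate 1).

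At the lower end of the 492 genes was TRNAE-CUC, a glutamate tRNA gene on chromosome 11, with a fold enrichment of 3.44 and 3.52 in FLAG-SNAP1, 3.48 and 4.35 in FLAG-SNAP2, 3.16 and 4.83 in FLAG-SNAP3, and 2.99 and 4.05 in FLAG-SNAP4. Its mean percentile was 23.1 ± 20.8 (SD, n = 8 libraries). It was named after its values were seen, as the weakest gene with a summit everywhere. Over the 492 genes, Spearman's rho of fold enrichment between replicates was 0.824 in FLAG-SNAP1, 0.716 in FLAG-SNAP2, 0.657 in FLAG-SNAP3 and 0.548 in FLAG-SNAP4. Between libraries of different TFs it had a median of 0.558 and a range of 0.437 to 0.678 over 24 pairs. The replicates of FLAG-SNAP1 and FLAG-SNAP2 were above that range, those of FLAG-SNAP3 in its upper part and those of FLAG-SNAP4 just under its median. These are correlations across genes, which share the genome and its mappability and are no independent replicates.

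To compare the strength of single tRNA sites between TFs, sites with a peak in all 8 libraries were used. Overlapping peaks were merged to a site, and 494 of the 1274 sites had a summit of at least 1 library within 200 bp of a tRNA gene. Each TF was set against the mean of the other 3 with limma on log2 fold enrichment, centred on the median of each library, so that a value below gives a change relative to all shared sites. At a Benjamini-Hochberg adjusted p of 0.05 over the 1274 sites, 2 tRNA sites were higher and 21 lower in FLAG-SNAP4 (0.405% and 4.25% of the 494), against 9.5% and 2.12% of all sites. In FLAG-SNAP3 11 were higher and 15 lower, against 4% and 5.81% of all sites. In FLAG-SNAP1 6 were higher and 1 lower, against 0.706% and 1.49%. In FLAG-SNAP2 none passed in either direction, against 0% and 0.157% of all sites, and 53 tRNA sites had an unadjusted p under 0.05. Both other scalings gave 0 calls for that TF too. The median change of the tRNA sites was -0.12 in FLAG-SNAP4, against 0.19 for the other sites and 0.07 for all. It was 0.10 in FLAG-SNAP1, against -0.09 for the other sites and -0.02 for all.

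The counts depend on the scaling and on single libraries. Without centring, FLAG-SNAP4 had 0 higher and 247 lower tRNA sites, FLAG-SNAP3 30 and 2, and FLAG-SNAP1 60 and 0. Over all 1274 sites these counts were 29 and 317, 128 and 33, and 99 and 9. The median of all sites was shifted by -0.26, 0.13 and 0.18. With quantile normalization the tRNA counts were 0 and 13 in FLAG-SNAP4, 11 and 8 in FLAG-SNAP3, and 0 and 0 in FLAG-SNAP1. Over all sites they were 27 and 16, 44 and 42, and 0 and 4. Lower tRNA sites outnumbered higher ones in FLAG-SNAP4 under all 3 scalings, but without centring lower sites also outnumbered higher ones over all sites. Without FLAG-SNAP4 replicate 1, however, the median change of the tRNA sites in FLAG-SNAP4 was only -0.05, against 0.13 for the other sites. Without replicate 2 of that TF it was -0.19, against 0.22. Without FLAG-SNAP3 replicate 2, 0 sites were higher and 7 lower in FLAG-SNAP3, and without either FLAG-SNAP1 replicate none passed in FLAG-SNAP1. In such fits the lone replicate is assumed to vary like those of the other TFs.

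Another measure was the gap in median log2 fold enrichment between the 494 tRNA sites and the other 780 sites of a library. A constant factor on the fold enrichment of a library cannot move it, whereas quantile normalization can. The gap was 0.62 and 0.61 in FLAG-SNAP1, 0.54 and 0.61 in FLAG-SNAP2, 0.53 and 0.46 in FLAG-SNAP3, and 0.19 and 0.40 in FLAG-SNAP4. All 8 libraries had higher tRNA sites, and both FLAG-SNAP4 libraries lay below all others. The gap differed across the 4 TFs by the exact permutation test (p = 0.00952, the smallest possible), but it was chosen after the values were seen. The p was 0.0667 without FLAG-SNAP4 replicate 1 or FLAG-SNAP2 replicate 2, 0.0857 without FLAG-SNAP1 replicate 2, FLAG-SNAP2 replicate 1 or FLAG-SNAP3 replicate 2, and 0.0952 without FLAG-SNAP1 replicate 1 (exact permutation tests), so that the difference passed the test only without either of the other 2 libraries or with all 8. The FLAG-SNAP4 libraries had the lowest median log2 fold enrichment over all shared sites, 2.27 and 2.47, against 2.61 to 2.77 in the other 6. The part of this in their smaller gap was not tested.

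**Figure D1:**
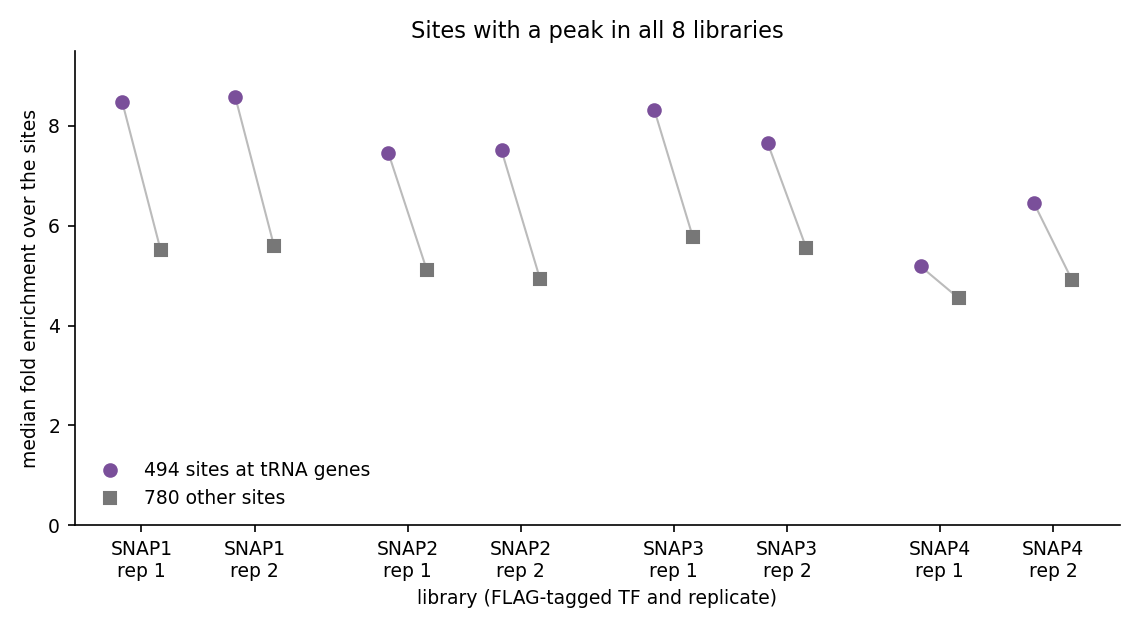
Median fold enrichment (y axis) in each of the 8 libraries (x axis, FLAG-tagged TF and replicate) over the 494 sites at tRNA genes (circles) and the 780 other sites (squares) with a peak in all 8 libraries, with lines joining the medians of a library. The tRNA sites were higher in every library, and the distance was shortest in FLAG-SNAP4, at 5.19 against 4.54 in replicate 1 and 6.46 against 4.90 in replicate 2.

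Among the tRNA sites lower in FLAG-SNAP4, the largest change was at TRNAI-AAU, an isoleucine tRNA gene on chromosome 13 (chr13:33325186-33325837). Its fold enrichment was 3.68 and 3.76 in FLAG-SNAP4, against 9.01 and 9.20 in FLAG-SNAP1, 7.20 and 7.98 in FLAG-SNAP2, and 7.64 and 9.53 in FLAG-SNAP3. The 2 SNAP4 libraries were far below the other 6 (relative log2 change -0.84 ± 0.140 SE, limma adjusted p = 0.00074). TRNAG-CCC, a glycine tRNA gene on chromosome 2, had 3.78 and 4.18 in FLAG-SNAP4, against 7.07 to 9.81 in the other 6 libraries (-0.67 ± 0.131 SE, limma adjusted p = 0.0026). TRNAS-GCU, a serine tRNA gene on chromosome 13, had 4.09 and 5.15 in FLAG-SNAP4, against 7.32 to 9.87 (-0.59 ± 0.128 SE, limma adjusted p = 0.0058). Neither pair overlapped the other libraries.

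At the 2 tRNA sites higher in FLAG-SNAP4 both genes had a length unusual for their anticodon. These calls depended on the scaling, as 0 tRNA sites were higher in FLAG-SNAP4 with quantile normalization or without centring. TRNAF-GAA, a phenylalanine tRNA gene of 76 bp on chromosome 11 where most have 73 bp, had a fold enrichment of 16.9 and 15.8 in FLAG-SNAP4, against 15.5 and 11.7 in FLAG-SNAP1, 12.3 and 7.70 in FLAG-SNAP2, and 14.0 and 11.3 in FLAG-SNAP3. The relative log2 change was 0.80 ± 0.169 SE (limma adjusted p = 0.0052), and its summits lay 37 to 144 bp outside the gene. TRNAM-CAU, a methionine tRNA gene of 74 bp on chromosome 20 (chr20:8407988-8408980), had 12.2 and 13.0 in FLAG-SNAP4, against 9.67 to 12.0 in the other 6 libraries (0.53 ± 0.130 SE, limma adjusted p = 0.013). This site is wide, and only 6 libraries had its summit within 200 bp of the gene, so that the values of FLAG-SNAP4 replicate 1 (12.2) and FLAG-SNAP2 replicate 1 (9.78) belong to peaks with a summit farther away. In raw fold enrichment both sites were only slightly above the highest of the other libraries.

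**Figure D2:**
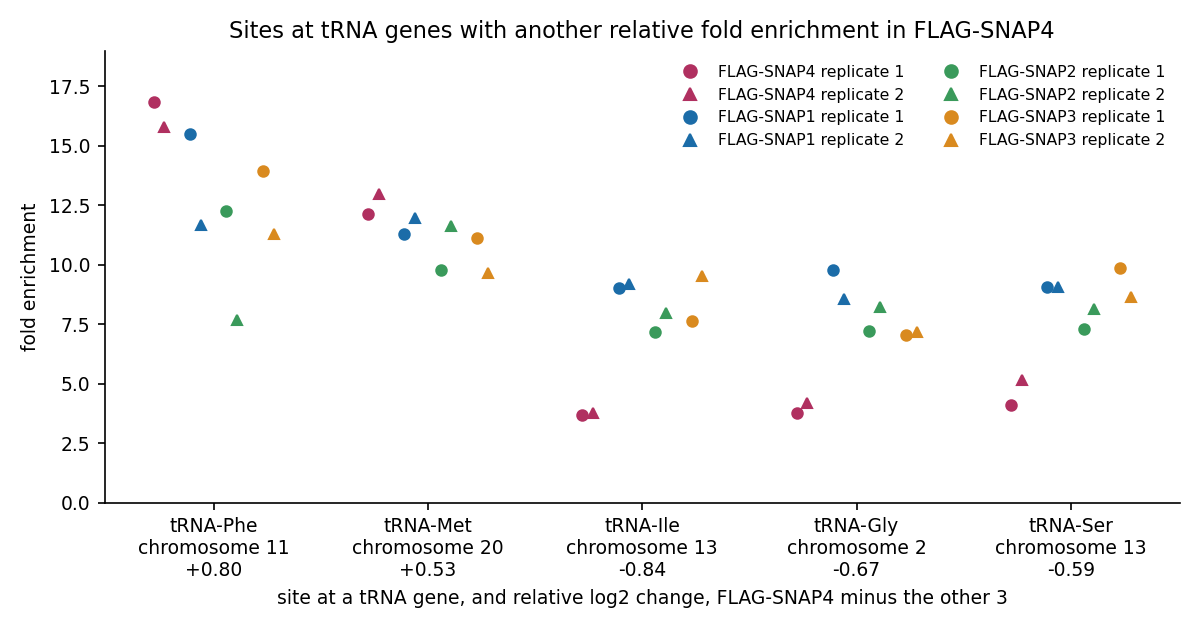
Fold enrichment (y axis) in each of the 8 libraries at 5 tRNA sites (x axis) past the threshold in FLAG-SNAP4. These are the 2 higher sites and, of the 21 lower sites, the 3 with the largest relative change. Under each name stands the relative log2 change of FLAG-SNAP4 minus the mean of the other 3. Circles are replicate 1 and triangles replicate 2, and FLAG-SNAP4 stands left of the other TFs. The isoleucine, glycine and serine sites lay between 3.68 and 5.15 in FLAG-SNAP4 and above 7 in the others.

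For FLAG-SNAP3, TRNAR-UCU (arginine, chromosome 3) had 10.1 and 9.61, against 4.09 to 6.75 in the other 6 libraries (relative log2 change 0.70 ± 0.140 SE, limma adjusted p = 0.0051). TRNAG-UCC (glycine, chromosome 20) and TRNAF-GAA (phenylalanine, chromosome 2) followed with 0.65 and 0.59. On the lower side TRNAP-UGG (proline, chromosome 4) had 5.50 and 5.81 in FLAG-SNAP3, against 5.96 to 11.1 in the others (-0.77 ± 0.130 SE, limma adjusted p = 0.0020), before TRNAL-AAG (leucine, chromosome 6) with -0.70 and TRNAV-UAC (valine, chromosome 11) with -0.56. For FLAG-SNAP1, TRNAV-AAC (valine, chromosome 17) had 10.2 and 12.0, against 4.82 to 7.39 in the other 6 libraries (0.68 ± 0.141 SE, limma adjusted p = 0.016). TRNAV-CAC (valine, chromosome 9) and TRNAM-CAU (methionine, chromosome 6) followed with 0.62 and 0.59, and TRNAL-AAG (leucine, chromosome 13) was the site that was lower, with -0.56. All of these FLAG-SNAP1 calls were lost without either FLAG-SNAP1 replicate.

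By amino acid, every group had genes with a summit for each TF, and the groups differed in the share of such genes. Methionine, alanine and glycine tRNA genes were occupied most often, with a summit in 7.77, 7.65 and 7.64 of the 8 libraries on average. Of the 35 methionine genes 31 had a summit in all 8 libraries (88.6%), of the 49 alanine genes 44 (89.8%) and of the 56 glycine genes 43 (76.8%). Lysine (7.59 libraries per gene), valine (7.56), threonine (7.54) and leucine (7.49) followed. In the middle stood histidine (7.12), tyrosine (7.05), glutamate (7.02), isoleucine (6.97), serine (6.96), phenylalanine (6.95), asparagine (6.91) and aspartate (6.75). Arginine (6.62), tryptophan (6.47), proline (6.20), glutamine (6.12) and cysteine (6.07) came last. Neighbours in this order differ by less than the SD of a group's share over libraries, which ran from 2.16 points for methionine to 24.4 points for cysteine. That SD includes differences between libraries that all groups share, and it does not measure the spread between genes. Methionine, alanine, glycine, lysine, valine and threonine exceeded the share over all tRNA genes in each of the 8 libraries, and arginine, tryptophan, proline and glutamine were below it in each.

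Cysteine was the group that varied most between libraries. Its 14 genes all carry the anticodon GCA and are single, and only 4 of them (28.6%) had a summit in all 8 libraries. The share was 92.9% in both FLAG-SNAP1 libraries, 100% and 92.9% in FLAG-SNAP2, 71.4% and 42.9% in FLAG-SNAP3, and 35.7% and 78.6% in FLAG-SNAP4. The deviation from the share over all tRNA genes was -0.725 and 2.63 points in FLAG-SNAP1 and FLAG-SNAP2, against -26.4 and -26.7 points in FLAG-SNAP3 and FLAG-SNAP4, but replicates differed as much (exact permutation test, p = 0.2). Glutamate had the smallest p of the 20 groups. Its 40 genes deviated by 3.92, 2.46, -2.25 and -7.60 points in FLAG-SNAP1, FLAG-SNAP2, FLAG-SNAP3 and FLAG-SNAP4 (exact permutation test, p = 0.0190). After Benjamini-Hochberg adjustment over the 20 groups none passed, and the smallest adjusted p was 0.360.

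**Figure D3:**
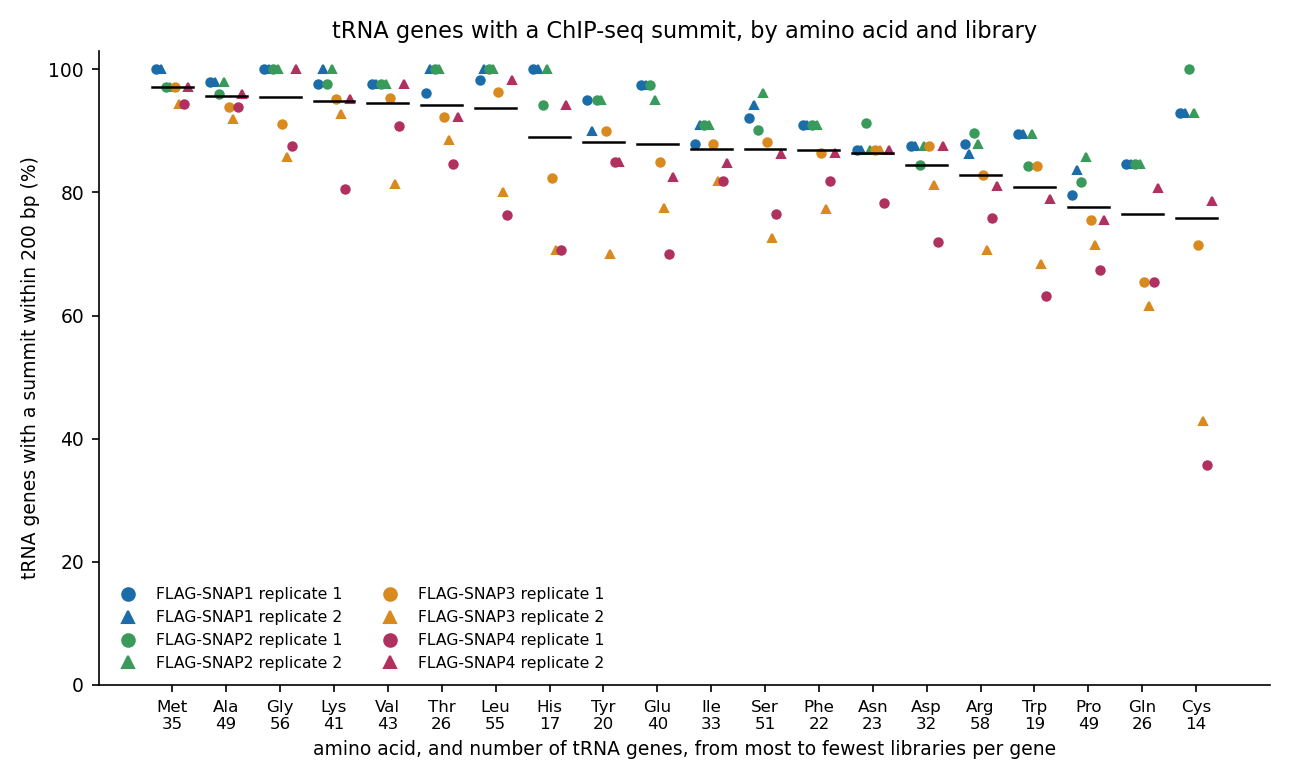
Share of tRNA genes with a summit within 200 bp (y axis, percent) for each of the 20 amino acids (x axis, with the number of genes), in order of the mean number of libraries with a summit. Each point is 1 library (colour for the TF, circle for replicate 1, triangle for replicate 2) and the bar is the mean over 8 libraries. Cysteine spread from 35.7% to 100%, and methionine only from 94.3% to 100%.

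Anticodons for the same amino acid could differ. For glutamine, which is read by anticodons UUG and CUG, the 13 TRNAQ-UUG genes split into 10 with a summit in all 8 libraries and 3 with none, so that each library had 76.9%. The 13 TRNAQ-CUG genes had 4 with all 8 libraries and none without any, and their share ran from 46.2% to 92.3%. For glutamate, 15 of 24 TRNAE-CUC genes and 5 of 16 TRNAE-UUC genes had a summit in all 8. All 16 TRNAE-UUC genes had both replicates of FLAG-SNAP1 and of FLAG-SNAP2, 11 had both of FLAG-SNAP3 and 6 both of FLAG-SNAP4. Their median percentile was 89.3 and 90.9 in FLAG-SNAP1 but 57.5 and 65.3 in FLAG-SNAP4. These anticodons are shown for their contrast, which was picked after the values were seen and carries no test.

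In the families with most anticodons the range was as wide. Among leucine genes all 7 TRNAL-CAG genes and 14 of 16 TRNAL-AAG genes had a summit in all 8 libraries, against 6 of 8 for TRNAL-UAA, 8 of 14 for TRNAL-CAA and 5 of 10 for TRNAL-UAG. Among serine genes these were all 6 of TRNAS-CGA, 7 of 10 of TRNAS-UGA, 9 of 15 of TRNAS-AGA and 11 of 20 of TRNAS-GCU. Leucine and serine tRNAs carry a long variable arm, which makes their genes longer than most. Among arginine genes 12 of 13 TRNAR-CCU, 7 of 9 TRNAR-UCG, 9 of 14 TRNAR-ACG, 3 of 5 TRNAR-CCG and 8 of 17 TRNAR-UCU genes had all 8. Among alanine genes 16 of 17 TRNAA-UGC, 22 of 24 TRNAA-AGC and 6 of 8 TRNAA-CGC genes had all 8. For glycine the counts were 16 of 18 with TRNAG-UCC, 22 of 29 with TRNAG-GCC and 5 of 9 with TRNAG-CCC. For valine they were 8 of 9 with TRNAV-UAC, 17 of 21 with TRNAV-AAC and 9 of 13 with TRNAV-CAC. For proline they were 3 of 5 with TRNAP-CGG, 11 of 19 with TRNAP-AGG and 12 of 25 with TRNAP-UGG. For threonine, lysine and isoleucine they were 8 of 11 with TRNAT-AGU, 7 of 10 with TRNAT-UGU and 3 of 5 with TRNAT-CGU, 16 of 20 with TRNAK-UUU and 15 of 21 with TRNAK-CUU, 19 of 25 with TRNAI-AAU and 5 of 8 with TRNAI-UAU.

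Over the 34 anticodons with at least 10 genes (630 genes), the lowest mean was 5.41 libraries per gene, for TRNAR-UCU, before TRNAP-UGG with 5.68, and the highest 7.88, for TRNAA-UGC, and 7.83, for TRNAG-UCC. All genes had a summit in all 8 libraries with 2 of the 45 anticodons. Genes were also grouped by the first base of the anticodon, which pairs with the third base of the codon (wobble). The share of genes with a summit in all 8 libraries was 75.2% of 145 genes with A, 70.6% of 197 with C, 67.4% of 190 with U and 65.5% of 177 with G. By the mean number of libraries per gene, C came first with 7.28, before A (7.17), U (6.99) and G (6.93).

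Methionine and tyrosine tRNA genes include genes with an intron in plants, which lengthens the gene. Of the methionine genes, all with anticodon CAU, 17 were 85 bp long and had a mean of 7.94 libraries, and 14 were 72 bp long and had 7.93. A summit in all 8 libraries was found at 16 of the 17 and at 13 of the 14. The annotation's symbols do not tell initiator from elongator genes. Of the 20 TRNAY-GUA genes 14 had a summit in all 8 libraries and 1 in none.

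Clustered tRNA genes were occupied less often than single ones in every library. The share with a summit was 76.6% and 81.8% of the 77 clustered genes in FLAG-SNAP1, against 95.3% and 95.4% of the 632 single genes. It was 77.9% and 81.8% in FLAG-SNAP2, against 95.3% and 95.7%, 71.4% and 55.8% in FLAG-SNAP3, against 89.9% and 81.96%, and 62.3% and 68.8% in FLAG-SNAP4, against 80.5% and 91.6%. The difference averaged -18.6 points (-26.1 to -13.6, lower in 8 of 8 libraries), larger than the spread between libraries (exact two-sided sign-flip test, p = 0.0078, the smallest possible, over the same genes in each library). It did not differ across the TFs (exact permutation test, p = 0.352, chosen after the values were seen). In all 8 libraries 34 of the clustered genes had a summit (44.2%), against 458 of the single genes (72.5%). None had a summit at 11 clustered genes (14.3% of them) and 20 single genes (3.16%).

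**Figure D4:**
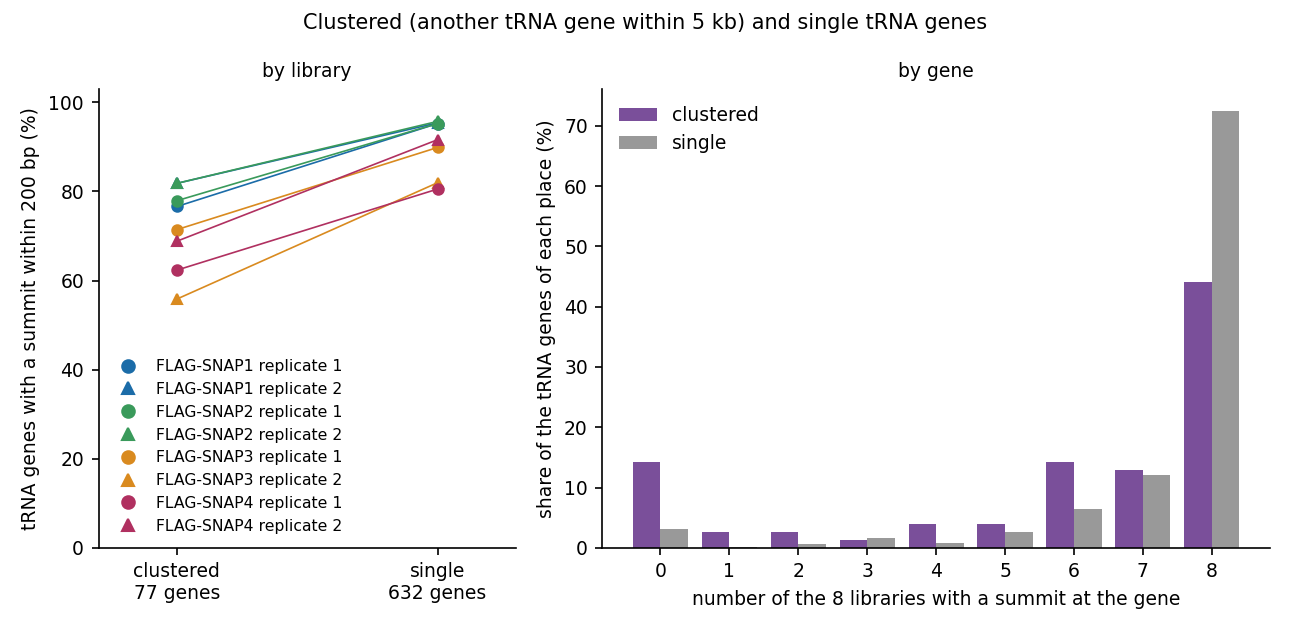
Left, share of clustered and of single tRNA genes with a summit (y axis, percent) in each library, with a line joining the values of a library. Right, share of the genes of each place (y axis, percent) by the number of libraries with a summit at the gene (x axis, 0 to 8). Clustered genes ran from 55.8% to 81.8% and single genes from 80.5% to 95.7%.

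Occupied clustered genes also had slightly weaker peaks. The median percentile of the strongest peak was 83.4 to 91.2 over the libraries at clustered genes and 84.4 to 94.9 at single genes, a mean difference of -4.23 (-6.63 to -0.900, exact two-sided sign-flip test, p = 0.0078). This direction depended on the definition: with genes called clustered within 1 kb (22 genes) the difference was 3.00 (-1.28 to 8.71, higher in 7 of 8 libraries), and within 10 kb (107 genes) it was -1.77. The difference in the share with a summit was -13.5 points within 1 kb and -12.1 points within 10 kb.

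The clustered genes formed 35 arrays, of which 31 had 2 genes, 1 had 3 and 3 had 4. In 14 arrays all genes carried the same anticodon and in 21 they were mixed. All genes had a summit in all 8 libraries in 12 arrays and in none in 2. The 62 genes in pairs had a summit in 6.47 libraries on average, and 33 of them (53.2%) had one in all 8. The 15 genes in larger arrays had a summit in 2.87 libraries on average, and 1 of them (6.67%) had one in all 8.

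The arrays of 4 genes held proline tRNA genes only. On chromosome 10 the array had 3 TRNAP-UGG genes and 1 TRNAP-AGG gene. The first TRNAP-UGG gene had a summit in all 8 libraries, at a mean percentile of 65.7, the next in 7 and the last in 5. TRNAP-AGG had one in a single library, FLAG-SNAP4 replicate 2. On chromosome 20 a first array had 4 TRNAP-UGG genes that overlap the protein-coding gene LOC100819474. It had a summit in 2, 0, 0 and 1 libraries, the last of them in FLAG-SNAP1 replicate 2. A second array on chromosome 20 held 2 TRNAP-AGG genes, with summits in 5 and 7 libraries, and 2 TRNAP-UGG genes, with summits in 7 and 0. The peaks of this array lay below the middle of their lists, with mean percentiles of 20.01 ± 8.53, 22.8 ± 15.9 and 17.4 ± 9.70 at the genes that had any. These are SDs over the libraries with a summit, and single values reached 46.4, in FLAG-SNAP3 replicate 2. The array of 3, on chromosome 12 with TRNAR-UCU, TRNAP-UGG and TRNAW-CCA (tryptophan), had no summit in any library.

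The low occupancy of proline genes lay in the arrays. Of the 18 clustered proline genes 2 had a summit in all 8 libraries (11.1%), against 24 of the 31 single proline genes (77.4%). For the other amino acids 32 of 59 clustered genes (54.2%), against 434 of 601 single genes (72.2%), had all 8. Without proline genes the difference between clustered and single genes was -12.4 points (-20.5 to -9.07, lower in 8 of 8 libraries, exact sign-flip test, p = 0.0078), an alternative chosen after the values were seen. Without genes of a length unusual for their anticodon, also chosen then, it was -12.4 points too. The sequences of the copies were not analysed here, so how many reads of each gene could be placed uniquely was not tested.

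In 7 pairs the genes lay within 400 bp of each other, and most of these pairs shared their peaks. The exceptions were a pair of TRNAV-AAC genes on chromosome 5, with summits in 6 and 2 libraries, and TRNAP-UGG and TRNAW-CCA of the array on chromosome 12, which had none. TRNAK-UUU (lysine) and TRNAF-GAA (phenylalanine) stood side by side in 2 of them, on chromosomes 11 and 18, with mean percentiles of 98.6 and 97.6. TRNAN-GUU (asparagine) and TRNAS-AGA (serine) on chromosome 2 had 96.5. Counting genes that share a locus once, the difference between clustered and single genes was -18.4 points.

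The 31 genes without a summit in any library were spread over 15 anticodons of 12 amino acids, and 30 anticodons had none. They were 4 TRNAR-UCU and 4 TRNAP-UGG genes, 3 each of TRNAD-GUC (aspartate), TRNAI-AAU and TRNAQ-UUG, 2 each of TRNAF-GAA, TRNAN-GUU, TRNAS-GCU and TRNAW-CCA, and 1 each of TRNAA-AGC, TRNAE-CUC, TRNAP-AGG, TRNAR-ACG, TRNAR-CCG and TRNAY-GUA. Of the 31, 11 were clustered and 13 had another length than the usual one of their anticodon. Only 14 were single and of the usual length.

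The surroundings of the genes are given as a description, with no test. A summit in all 8 libraries was found at 178 of 234 tRNA genes within 1 kb of a protein-coding gene (76.1%), 213 of 312 at 1 to 5 kb (68.3%), 66 of 108 beyond 5 kb (61.1%) and 35 of 55 that overlap a protein-coding gene (63.6%). Of the genes without any summit 2 lay within 1 kb of a protein-coding gene, 8 at 1 to 5 kb, 14 beyond 5 kb and 7 overlapped one. By chromosome, the share in all 8 libraries ran from 40.7% of 27 genes on chromosome 20, which holds 2 of the proline arrays, to 84.6% of 26 genes on chromosome 9.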

How the data were processed

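The data were 8 peak lists of anti-FLAG ChIP-seq. The authors trimmed reads with Trim Galore 0.6.6, mapped them with Bowtie2 2.3.4.3 (genome Wm82 a4.v1), retained uniquely placed proper pairs with SAMtools, and ran MACS2 2.2.7.1 on each library separately with a threshold of 0.05 on the q-value. No control library is named. The deposited lists hold the position of each peak, a score, a ratio (fold enrichment of its summit), and −log10 values of p and q. Reads that fit several tRNA genes equally well are lost by the filter on unique mapping, so an unbound gene and an unmappable one cannot be told apart. Only a minimum read depth common to the samples is stated, not that of each library.

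RefSeq genes of Glycine_max_v4.0 on the 20 chromosomes were used, with chromosomes matched by number. It holds 767 genes of biotype tRNA, of which 37 in the plastid, 19 in the mitochondrion and 2 on unplaced sequence were not used. Sequences and strands were not analysed here, so no promoter box was searched. The members and lists were chosen with earlier results of these data known.

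Shares were compared across TFs with an exact permutation test over all divisions of the libraries into pairs, and between gene groups with an exact two-sided sign-flip test over the 8 libraries. Fold enrichment at shared sites was compared with limma 3.58.1 in R 4.3.3 on log2 values and adjusted over all sites. Named genes were the 5 with the highest mean percentile among those in all 8 libraries, up to 3 sites per direction and TF past the threshold with the largest change, the arrays with most genes, and each amino acid and anticodon as a group. The permutation tests and the limma fit were tested on simulated data. Alternatives were the distance (100 and 500 bp), the q-value (0.01 and 0.0001), the midpoint in place of the summit, an equal number of peaks per library, other gaps for clustering (1 and 10 kb), other scalings, a replicate block and each library left out. Python 3.11.15 with pandas 2.3.3 and numpy 2.4.6 was used.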

Additional observations from a re-analysis of the deposited data

Results flagged for a closer look

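The gap in median log2 fold enrichment between the 494 tRNA sites and the 780 other sites shared by all 8 libraries differed between the TFs by a test of the difference itself (exact permutation test, p = 0.00952). It averaged 0.29 ± 0.146 in FLAG-SNAP4, 0.49 ± 0.0465 in FLAG-SNAP3, 0.58 ± 0.0429 in FLAG-SNAP2 and 0.62 ± 0.00697 in FLAG-SNAP1 (SD, n = 2 each). The measure was chosen after the values were seen, and the difference did not pass without any single one of 6 of the 8 libraries (exact permutation p of 0.0667 to 0.0952).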

How the results depend on the processing

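The share of tRNA genes with a summit, its difference from other small RNA genes and from single to clustered genes, the percentile of tRNA peaks, and the amino acid groups kept their side of the threshold under every alternative run for them. The 492 genes with a summit in all 8 libraries became 410 at a q-value of 0.0001, 431 within 100 bp, 439 with the same number of peaks in each library and 540 without FLAG-SNAP4 replicate 1, and the 31 genes without a summit 31 to 38. The percentile of clustered minus single genes turned to 3.00 when clustered meant within 1 kb. The test of the share of peaks at tRNA genes gave an exact permutation p = 0.0286 within 100 bp, 0.0381 and 0.0190 at q-values of 0.01 and 0.0001, and 0.0286 to 0.248 with each library left out. The 56 tRNA sites called over the 4 TFs became 32 with quantile normalization, 339 without centring, 94 at a q-value of 0.0001, and 29 to 85 with each library left out. The gap between tRNA and other sites had an exact permutation p = 0.00952 to 0.0952 with each library left out. With replicate number as a block the exact permutation p was 0.292 for the share of tRNA genes and 0.167 for the share of peaks. It was 0.333 for the percentile and 0.0417 for the gap, and 50 calls were made in place of 56. Deviations of same-numbered libraries correlated by -0.0760 to 0.0443 over 1274 sites. No pairing of the samples was thus detected at single sites, which does not exclude one. A shift common to all sites of a library was removed by the centring, so a batch of that kind was not examined. Each of the permutation tests with the block stayed on its side of 0.05. With 2 libraries per TF and no depth for each library, a missing peak does not show a missing TF.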

Other observations

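A group of tRNA genes on the chromosomes was set apart after the values were seen, by gene length alone. In 11 genes the length differed from the usual one of the anticodon and equalled that of the plastid tRNA gene with the same anticodon. They were 4 TRNAR-UCU, 3 TRNAS-GCU, 2 TRNAM-CAU, 1 TRNAP-UGG and 1 TRNAW-CCA gene. None had a summit in all 8 libraries, 8 had none in any, and the mean was 1.27 libraries. Of the 44 genes with another unusual length 32 had a summit in all 8 libraries (72.7%) and 5 had none. Of the 73 genes of usual length that equals the plastid length 51 had all 8 (69.9%), and of the remaining 581 genes 409 (70.4%).

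The 3 genes of the group with a summit differed from each other. TRNAS-GCU of 87 bp on chromosome 11 had one in 4 libraries, at a mean fold enrichment of 5.98. TRNAM-CAU of 74 bp on chromosome 17 had one in 4 libraries at 2.29, near the bottom of the lists (mean percentile 0.298), and TRNAM-CAU of 74 bp on chromosome 20 had one in 6 libraries at 11.5 (mean percentile 98.3). On chromosome 12 the TRNAP-UGG gene of the group lay 188 bp from a TRNAW-CCA gene, and neither had a summit. This TRNAW-CCA gene is 82 bp long, not 74 bp as in the plastid, and so is not of the group. The plastid genes of these names lie 202 bp apart.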
